A study of Homo sapiens with 6 samples.

Results

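Fragments cut from the 3′ ends of tRNA-Gln and tRNA-Phe (3′ tRFs) were taken from a count table of tRNA-derived fragments in cells of the established human melanoma line A375. A fragment belonged to one of the families if the table typed it as a 3′ tRF, if its sequence held the 13 bases that precede the CCA end of tRF-17-WS7K092 (Gln) or of tRF-17-K879652 (Phe), and if it ended in CC or CCA. The rule found 10 of the 3443 fragments listed, 5 of Gln and 5 of Phe, among 297 3′ tRFs. The 3 wild-type libraries came from cells grown alongside but not edited, and the 3 knockout libraries from cells edited with CRISPR/Cas9 at DUS1L and then cloned; all 6 are described by the submitters as biological replicates. How many clones the knockout libraries stand for is not given in the sources used here, so the spread between libraries may not include the spread between clones. Library totals ran from 15742 to 32754 counts, 3′ tRFs took 14.1% to 15.6% of wild-type and 4.87% to 5.84% of knockout counts, and DUS1L, an mRNA gene, has no row in this table, so neither its loss nor the identity of the line was checked here. Wild-type replicate 3 stood apart from its group, with a chi-square per degree of freedom of 8.22 and 5.83 against wild-type replicates 1 and 2, where the other pairs within a group had 2.56 to 2.93. The families were chosen by the knockout against wild-type counts of their most abundant members, which were lower in the knockout, so the abundance of every member is a description, and the calls counted further down are no test of it.

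DUS1L is a dihydrouridine synthase, an enzyme that reduces uridines in the D-loop, in the 5′ part of tRNA, while the fragments described here come from its 3′ end. Short 3′ tRFs arise by cleavage in the T-loop, the loop nearest the 3′ end, and carry the CCA tail that the CCA-adding enzyme TRNT1 puts on every mature tRNA. Fragments of this kind are known to be bound by Argonaute proteins. A fragment that stops at CC lacks the terminal A, the residue to which the amino acid is attached.

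The 5 Gln fragments are shown first because they differ only at their ends, with the 13 shared bases in capitals and written as DNA, 5′ to 3′.
tRF-17-WS7K092: tCTCGGTGGGACCTcca
tRF-18-H9R8O7D2: atCTCGGTGGGACCTcca
16 nt CCA form of Gln: CTCGGTGGGACCTcca
tRF-16-WS7K09D: tCTCGGTGGGACCTcc
tRF-17-H9R8O7J: atCTCGGTGGGACCTcc

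The 5 Phe fragments have the same layout, again with the 13 shared bases in capitals.
tRF-17-K879652: cCCGGGTTTCGGCAcca
tRF-18-8SRZMFD2: tcCCGGGTTTCGGCAcca
tRF-16-3KZSP1B: CCGGGTTTCGGCAcca
tRF-16-K87965D: cCCGGGTTTCGGCAcc
tRF-17-8SRZMFJ: tcCCGGGTTTCGGCAcc

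Each family was therefore made of 3 starts, at the first shared base or 1 or 2 bases before it, and of 2 ends, and all members were 16 to 18 nt long. The table lists no fragment shorter than 16 nt, so a fragment that begins at the first shared base and stops at CC could not appear. Longer 3′ tRFs can appear in it (29 of the 287 outside the families exceeded 18 nt), but 0 of the rows with the 13 bases did. Outside the rule stood 1 further Gln row, tRF-16-H9R8O7D, which stops at a single C and had 1 count, in wild-type replicate 1.

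The Gln sequences could be placed on a gene. The longest Gln member without its CCA occurred in 1 of 206694 GENCODE transcripts, one of AL049543.1, inside the tRNA gene TRQ-TTG2-1 (chr6:28589379-28589450, plus strand, GRCh38). There the tRNA gene lies in exon 2 of that transcript, whose gene is a noncoding one that GENCODE classes as antisense. RefSeq names 19 tRNA-Gln genes, and others may share this 3′ end. The search could find a tRNA gene only where it lies within a GENCODE transcript. A single match therefore does not make this gene the only source. The mature tRNA of 75 nt is shown to place the fragments, with the genome-encoded part of the longest member in capitals (chr6:28589436-28589450).
TRQ-TTG2-1 with CCA: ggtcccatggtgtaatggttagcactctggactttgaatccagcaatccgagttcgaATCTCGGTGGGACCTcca

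In this tRNA the 13 shared bases start at position 60, and they are the 3′ strand of the T-stem (5 of 5 bases complementary to the other strand across a loop of 7 nt), the 3′ strand of the acceptor stem (7 of 7 complementary to the first 7 bases of the tRNA) and the single base before CCA. A Gln fragment that starts at the first shared base thus starts with the T-stem, and the other starts are the last and the next-to-last base of the T-loop. The transcript continues with TTC after the tRNA gene, not with CCA, so the CC and CCA ends of the Gln members are not encoded there. The longest Phe member occurred in 0 of the GENCODE transcripts, so for Phe no gene is given, and its name rests on general knowledge of the tRNA-Phe end. Of the 404 5′ fragments listed, 10 began with the 7 bases that would pair with the corresponding 7 bases of the Phe family, and these are described further down.

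Both families were about 3-fold less abundant in the knockout libraries. Summed over its 5 members, the Gln family had 729, 326 and 330 counts in the wild-type libraries and 118, 127 and 170 in the knockout libraries, given here and below in the order of replicates 1 to 3. All knockout libraries lay below all wild-type libraries. On the scale of counts per 1000000 counts of the library with TMM scaling (CPM), the wild-type mean was 20812 ± 4726 and the knockout mean 6886 ± 939 (SD, n = 3), with a fitted log2 fold change of -1.60 (SE 0.273). The Phe family had 434, 189 and 244 counts against 89, 82 and 95 in the knockout, again with no overlap once scaled. Its sum went from 13033 ± 1699 to 4443 ± 376 CPM (SD, n = 3), which the fit put at a log2 fold change of -1.55 (SE 0.240). Without wild-type replicate 3 these log2 fold changes were -1.72 for Gln and -1.58 for Phe. Since counts are relative to the library, fewer of these fragments and more of all others cannot be told apart.

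Among the Gln members that end in CCA, the 17 nt form tRF-17-WS7K092, which starts at the last base of the T-loop, was the most abundant. It had 460, 211 and 203 counts in the wild-type and 62, 86 and 98 in the knockout libraries. Wild-type replicate 3 was the lowest of its group on the CPM scale (9672 against 14014 and 15813), and still above the highest knockout library (5084). The log2 fold change was -1.68 (SE 0.296).

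The 18 nt form with 1 more base of the T-loop, tRF-18-H9R8O7D2, had 160, 70 and 62 wild-type counts and 25, 25 and 38 knockout counts, a log2 fold change of -1.59 (SE 0.301). The 16 nt CCA form, which starts with the T-stem, had 73, 28 and 48 wild-type counts and 20, 10 and 23 knockout counts, a log2 fold change of -1.36 (SE 0.298). Neither overlapped between groups on the CPM scale, and whether the 3 CCA forms changed by different amounts was not tested.

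Of the Gln members without the terminal A, tRF-16-WS7K09D had 30, 14 and 14 counts against 9, 4 and 10 in the knockout. On the CPM scale its knockout libraries (236 to 443) were below its wild-type libraries (667 to 1031), and the log2 fold change was -1.21 (SE 0.389). The rarest member, tRF-17-H9R8O7J, had 6, 3 and 3 counts against 2, 2 and 1, too few for the filter on low counts that precedes the fit, and has no fitted value.

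In the Phe family the 17 nt CCA form tRF-17-K879652, which has 1 base before the shared stretch, held most counts, with 315, 145 and 171 in the wild-type and 64, 57 and 67 in the knockout libraries. Its CPM averaged 9535 ± 1343 without and 3138 ± 238 with the knockout (SD, n = 3), with no overlap and a log2 fold change of -1.60 (SE 0.246). The same start without the terminal A, tRF-16-K87965D, had 60, 24 and 42 counts against 10, 12 and 18, and a log2 fold change of -1.51 (SE 0.307). It was the second most abundant Phe fragment, whereas in the Gln family both CC forms ranked below all 3 CCA forms.

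The 18 nt Phe form tRF-18-8SRZMFD2 had the fitted change nearest to 0 of all members, and its groups overlapped. It had 29, 13 and 12 counts against 9, 10 and 6 in the knockout, that is 997, 863 and 572 CPM against 443, 591 and 259 CPM. Wild-type replicate 3 fell just below knockout replicate 2. The log2 fold change was -0.95 (SE 0.415). The 2 remaining Phe members did not pass the filter: tRF-16-3KZSP1B, which starts at the first shared base, had 21, 6 and 12 counts against 2, 2 and 3 with no overlap on the CPM scale (398 to 722 against 98.4 to 130), and tRF-17-8SRZMFJ had 9, 1 and 7 counts against 4, 1 and 1 and overlapped.

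In all, 7 of the 10 members passed the filter, 4 of Gln and 3 of Phe. With an adjusted p under 0.05 in the edgeR fit over 235 fragments, 4 of 4 Gln and 2 of 3 Phe members were lower and 0 were higher, where 28.1% of all tested fragments were called lower and 53.6% were called in either direction. The same 6 members had every knockout library below every wild-type library, which held for 30.6% of all tested fragments. Without wild-type replicate 3, 4 Gln and 3 Phe members were called lower, where 27.8% of 270 tested fragments were. Since this contrast chose the families, these counts describe them and support nothing.

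The fitted changes of the families were of the size seen in the other 3′ tRFs that were tested. Only 34 of the 287 outside the families passed the filter. As 3′ tRFs took less of the knockout counts, a rare one could pass on its wild-type counts alone. Of the 34 tested 3′ tRFs outside both families 29 were called lower (85.3%) and 0 higher, and their median log2 fold change was -1.51, beside medians of -1.47 for the tested Gln and -1.51 for the tested Phe members and of -0.01 for all tested fragments. As a share of all 3′ tRF counts the Gln family held 13.7% ± 1.90 in the wild-type and 12.9% ± 1.41 in the knockout (SD, n = 3). The Phe family held 8.68% ± 0.863 and 8.38% ± 1.18 of them. The log2 ratio of Gln to Phe counts was 0.66 ± 0.193 in the wild-type and 0.63 ± 0.216 in the knockout. In each of these the groups overlapped, and the sign of the difference changed when single libraries were left out. Both families were chosen for their fall in this contrast, so these values are given with no test.

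Between the families as the rule defines them, the share of counts ending in CC differed in every library. Comparisons between the families and with outside fragments, here and below, were chosen after the values were seen. Their p-values are therefore not those of planned tests. Of Gln counts 5.97% ± 1.75 ended in CC (SD over all 6 libraries; lowest 4.72%, highest 9.32%), and of Phe counts 16.8% ± 2.71 (lowest 13.2%, highest 20.1%). The share was higher in Phe in 6 of 6 libraries, by 10.8 points on average (two-sided exact sign permutation over libraries p = 0.0312, the smallest that 6 libraries can give, adjusted p = 0.0365 over 7 comparisons). Because the CC form of the shortest start could not be listed, the share was repeated for the 2 longer starts alone. It was then 6.84% ± 2.30 in Gln and 17.4% ± 2.90 in Phe, higher in Phe in 6 of 6 libraries (exact permutation p = 0.0312, adjusted p = 0.0365). Gln here means only fragments with its 13 shared bases. Left out is tRF-16-WS7209D, 1 base away and ending in CC, with 49, 36 and 35 counts against 22, 12 and 28 in the knockout. In every library it had more counts than the Gln members ending in CC had together (36, 17 and 17 against 11, 6 and 11). The Gln share, its distance from Phe and the p-values thus depend on leaving it out. Its parent tRNA was not looked for, and the share with it included was not computed.

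Among the 3′ tRFs outside both families that end in CC or CCA, 14.6% ± 2.18 of counts ended in CC. The Gln share was below this in 6 of 6 libraries, by 8.66 points on average (exact permutation p = 0.0312, adjusted p = 0.0365). The Phe share was above it in 5 of 6 libraries, by 2.17 points on average, and this did not pass the threshold (exact permutation p = 0.0625, adjusted p = 0.0625). The end is read from the letters alone, so in the outside fragments a CC that belongs to the body of a tRNA is counted with the tails. The outside fragments also include tRF-16-WS7209D, which ends in CC and may itself come from a tRNA-Gln. Counting it there raises the outside share and leaves it out of the Gln share. The distance between Gln and the outside fragments thus depends on where it is counted.

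The starts were spread more widely in Gln than in Phe. The start shares of a family add up to the whole, so the comparisons by start are not independent of each other. The start 1 base before the shared stretch held 66.1% ± 3.86 of Gln counts and 86.6% ± 2.63 of Phe counts, and was the larger in Phe in 6 of 6 libraries (exact permutation p = 0.0312, adjusted p = 0.0365). The start 2 bases before it held 22.0% ± 1.29 of Gln and 9.89% ± 3.25 of Phe counts, lower in Phe in 6 of 6. The start at the first shared base held 11.9% ± 3.63 of Gln and 3.46% ± 1.16 of Phe counts, also lower in Phe in 6 of 6, and both of these comparisons had the same exact permutation p of 0.0312 and adjusted p of 0.0365. With any 1 library left out the mean differences, Phe minus Gln, stayed between 19.5 and 22.0 points, between -13.0 and -11.4 points and between -9.11 and -7.20 points. By length, 17 nt fragments made up 64.0% ± 1.61 of Gln and 74.95% ± 2.16 of Phe counts in the wild-type (SD, n = 3), and 60.6% ± 7.80 and 72.9% ± 3.06 in the knockout.

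Within a family no share by start or end differed between wild-type and knockout past the threshold of 0.05. Comparing 3 libraries with 3 cannot give a p under 0.1, so these tests could not pass it. The adjustment was over 13 comparisons, which include the family shares of 3′ tRF counts and the Gln to Phe ratio described above. The share of Gln counts ending in CC was 5.10% ± 0.145 in the wild-type and 6.84% ± 2.32 in the knockout (SD, n = 3; two-sided exact permutation p = 0.4, adjusted p = 0.867), a difference of 1.74 points that was 0.496 without knockout replicate 1. For Phe it was 16.4% ± 3.45 and 17.2% ± 2.43 (exact permutation p = 1, adjusted p = 1). Knockout replicate 1 had the highest Gln share, 9.32% or 11 of 118 counts, with a 95% exact binomial (Clopper-Pearson) interval of 4.75% to 16.1%, which holds the wild-type values. For the Phe family the interval in the same library was 8.88% to 25.0%. Such intervals cover counting error only, and differences of a few points were not detectable at this depth.

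The start shares gave 1 comparison without overlap. The Phe start at the first shared base held 4.31% ± 0.984 of the family's counts in the wild-type and 2.61% ± 0.480 in the knockout, with wild-type libraries at 3.17% to 4.92% and knockout libraries at 2.25% to 3.16% (exact permutation p = 0.1, adjusted p = 0.867). It rests on 2, 2 and 3 counts in the knockout libraries. The corresponding Gln start held 11.05% ± 3.11 and 12.8% ± 4.58 and overlapped (exact permutation p = 0.7, adjusted p = 0.910). For the Phe start 2 bases before the shared stretch the shares were 7.98% ± 0.695 and 11.8% ± 3.88, with knockout replicates 1 and 2 at 14.6% and 13.4%, above the wild-type range of 7.41% to 8.76%, and replicate 3 at 7.37%, below it (exact permutation p = 0.4, adjusted p = 0.867).

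Fragments that match the middle of TRQ-TTG2-1 had a summed change nearer to 0 than the Gln 3′ tRFs. The 3′ tRFs may come from other tRNA-Gln genes too, whose internal fragments were not collected. A total of 50 internal tRFs matched TRQ-TTG2-1 exactly, all of low count, and other tRNAs may share some of them. Together they had 98, 63 and 103 counts against 66, 59 and 84 in the knockout, or 4154 ± 770 and 3455 ± 193 CPM (SD, n = 3), with overlapping groups and a log2 fold change of -0.26 (SE 0.246). The log2 ratio of the Gln 3′ tRFs to these internal fragments was 2.32 ± 0.610 in the wild-type and 0.99 ± 0.136 in the knockout, with no overlap. Its numerator is the family that was chosen for its fall, so the ratio is given with no test. The 1 internal fragment that passed the filter, of 19 nt, had 27, 14 and 20 counts against 9, 10 and 10, a log2 fold change of -0.95 (SE 0.336). It was itself called lower, as were 28.1% of all tested fragments. Its knockout libraries all lay below its wild-type libraries on the CPM scale, which held for 30.6% of all tested fragments. No 5′ fragment listed here began with the 7 bases that pair with the Gln acceptor strand (0 of 404).

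For Phe the 10 such 5′ fragments, 16 to 33 nt long, had 10, 0 and 2 counts in the wild-type and 7, 11 and 9 in the knockout libraries. The most frequent of them is shown with the 7 pairing bases in capitals.
tRF-17-PUDP4PQ: GCCGAAAtagctcagtt

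It had 0, 0 and 1 counts in the wild-type and 4, 6 and 5 in the knockout libraries, and was chosen for mention after its values were seen. The 8 forms of 18 nt and longer together had 10, 0 and 1 counts against 0, 4 and 4. Thus this short 5′ fragment had more counts in each knockout library while the Phe 3′ tRFs had fewer, at counts so low that none of the 10 passed the filter.

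Close relatives in sequence were looked for among the 3′ tRFs of the same length, at 1 or 2 bases from a member. For Phe there were 0, and for Gln 10. They are shown for the 2 that passed the filter, with the bases that differ from the Gln member in capitals and positions counted from 1 at the 5′ end of the fragment.
tRF-16-WS7209D: tctcggtggAacctcc
tRF-17-WSNKP92: tctcgCtgggGcctcca

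tRF-16-WS7209D carries G10A against tRF-16-WS7K09D, a change in the acceptor strand, and ends in CC. It had 49, 36 and 35 counts against 22, 12 and 28 in the knockout, more than tRF-16-WS7K09D in every library. Its log2 fold change was -0.90 (SE 0.308), beside -1.21 (SE 0.389) for tRF-16-WS7K09D. tRF-17-WSNKP92 carries G6C and A11G against tRF-17-WS7K092. It had 167, 76 and 110 counts against 32, 22 and 45, and a log2 fold change of -1.72 (SE 0.259) beside -1.68 (SE 0.296). The other 8 had 1 to 47 counts over all libraries.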

How the data were processed

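The table holds raw read counts per fragment for 6 libraries, deposited by the authors without normalization. MINTmap assigned the reads to tRNA per the series' design text, and the submitters' processing notes name cutadapt, FastQC, DESeq2 and GRCh38 (hg38); no version or filter is stated there. Each identifier is a MINTbase licence plate that spells out a sequence: the 3443 plates were decoded, and encoding the sequences again gave the same 3443 identifiers. Genes came from GENCODE 29 transcripts and RefSeq.

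Fragments were filtered with filterByExpr (minimum count 10), TMM-scaled and fitted with edgeR 4.0.16 in R 4.3.3 (quasi-likelihood, Benjamini-Hochberg adjustment over 235 fragments, called at 0.05). Standard errors are the log2 fold change divided by the root of F. Family sums replaced their members in the same table. The fit was also run on simulated counts with the same dispersion for every fragment. These libraries were not matched in that, so the run does not show how the fit performs on them. Shares were compared by exact permutation (SciPy 1.17.1). Alternatives were other scalings, filters, DESeq2 1.42.0, a replicate block and leaving out each library.

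Every member is given, 7 that passed the filter and 3 that did not. The members and lists were chosen with earlier results of these data known, and start shares, comparisons between families and outside fragments were chosen after the values were seen. No 2 libraries of 1 group agreed within sampling noise (lowest chi-square per degree of freedom 2.56).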

Additional observations from a re-analysis of the deposited data

How the results depend on the processing

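The log2 fold change of the Gln sum ran from -1.72 to -1.36 and that of the Phe sum from -1.65 to -1.41 with 1 library left out, and with a replicate block they were -1.58 and -1.55. The replicate numbers were not shown to pair the libraries (correlations of same-numbered libraries 0.281, 0.0117 and 0.113), and the block left the counts of called members at 4 and 2. With 50 or more counts required in 3 libraries, 2 Gln and 1 Phe members were tested and all were called lower, as were 25.8% of all 66 fragments tested. With no low-count filter 3 of 5 Gln and 3 of 5 Phe members were called lower, and 1.22% of 3443 fragments. DESeq2's Wald test called 2 of 5 Gln and 1 of 5 Phe members lower, and 3.84% of 573 fragments. With 1 library left out, 3 to 4 Gln and 2 to 3 Phe members were called lower, and from 11.3% (without knockout replicate 1) to 27.8% of all fragments.

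Small differences in shares, none past a threshold, changed sign. The knockout minus wild-type difference in the Phe share ending in CC was -2.02 points without the 17 nt fragment of the rule, -0.796 when wild-type replicate 2 was left out and -0.611 without knockout replicate 3, in a range of -0.796 to 2.63 with 1 library left out. In the Gln share ending in CC the difference kept its sign, in a range of 0.496 (without knockout replicate 1) to 2.79. That in the Gln share of 3′ tRF counts was 0.208 without wild-type replicate 1 (range -1.66 to 0.208). That in the Phe share was 0.0647 when wild-type replicate 1 was left out and 0.366 without knockout replicate 3 (range -0.775 to 0.366). The difference in the log2 ratio of Gln to Phe was 0.0148 without wild-type replicate 1, 0.0340 without wild-type replicate 2 and 0.0786 when knockout replicate 1 was left out (range -0.141 to 0.0786). The share of members of 16 to 18 nt was 100% in every library, which left nothing to compare. DESeq2's size factors moved the median over the 235 fragments from -0.01 to 0.10. With 82 to 434 Phe counts and 118 to 729 Gln counts per library, the rarest members had too few counts for the main filter.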
